A study of Homo sapiens with 27 samples.

Results

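Keratin genes were followed across the 9 groups of an RNA-seq study of MCF10A cells, a human breast epithelial line that is established in culture and does not form tumours. Members were all protein-coding genes whose symbol is KRT followed by a number and at most 1 letter from A to C, with rows of the same symbol summed, which gave 55 keratin genes of 36585 rows in the summed table. The rule uses symbols and gene types, not measured values. The cells had been grown with 5% horse serum and 20 ng/ml epidermal growth factor (EGF), seeded for 6 h and then kept 18 h in medium free of growth factors, so every group shares that starvation. T0 cells were taken at the end of it. The other 8 groups were taken 24 h later, after phosphate-buffered saline (PBS), EGF, oncostatin M (OSM, from the same cytokine family as interleukin-6) or transforming growth factor beta (TGFB), each ligand at 10 ng/ml, alone, in the 3 pairs (EGF+OSM, EGF+TGFB, OSM+TGFB) and all together (EGF+OSM+TGFB). Each group had 3 libraries, 27 in all. The series asks whether combined signals act as the sum of the single ones. The labels do not say whether the 3 libraries of a group came from separate cultures, so the p-values measure the spread between these libraries, which may be technical, in a single cell line.

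Keratins are the intermediate filament proteins of epithelial cells. A filament is built from pairs of 1 acidic (type I) and 1 basic (type II) keratin, so members work as partners: KRT5 with KRT14 in basal cells, KRT1 with KRT10 in the suprabasal layers of skin, KRT4 with KRT13 in the lining of the mouth and oesophagus, KRT6 with KRT16 or KRT17 in wounded or hyperproliferative epithelium, and KRT8 with KRT18 in simple epithelia such as the luminal layer of the breast. Hair keratins such as KRT81 build the hair shaft, and KRT75 belongs to the hair follicle and nail bed.

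The library totals lay between 30.1 and 52.9 M (mega) counts (median 39.5 M), and each of the 27 libraries correlated best with a library of its own group. The epithelial label was checked against marker genes. The adhesion gene CDH1 averaged 179.7 to 656 counts per 1 M counts (CPM, after scaling of library sizes) over the 9 groups, the basal markers TP63 and CDH3 averaged 86.4 to 195 CPM and 468 to 2331 CPM, EPCAM 3.27 to 16.3 CPM, and GRHL2, an epithelial transcription factor, at most 0.0958 CPM. Of 7 luminal markers, PGR, CSN3 and ELF5 were at or near 0, while 4 passed the count filter: ESR1 averaged 0.359 to 2.76 CPM over the groups, FOXA1 2.58 to 14.9, GATA3 11.2 to 27.8 and MUC1 131 to 824. EGF changed 1 of these 4 upward (FOXA1) and 3 downward, and the part of luminal-type cells in the keratin changes was not tested. Of the markers of other cell types, 5 of 7 for fibroblasts, 3 of 4 for endothelium and 1 of 4 for blood cells passed the count filter. COL3A1 (fibroblasts), CDH5 (endothelium) and PTPRC (blood cells) stayed at or under 0.133 CPM in all group means. In contrast DCN (91.6 CPM in PBS, 11.3 with EGF), COL1A1 (38.7 in PBS, 111 with TGFB) and KDR (30.2 in PBS, 0.870 with EGF) were present and moved with the ligands. Their part in the keratin changes was not tested. In bulk RNA, fewer cells of a type and less RNA per cell cannot be told apart.

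Of the 55 keratin genes, 19 reached a mean of at least 10 CPM in at least 1 group and 4 (KRT34, KRT75, KRT85 and KRT86) reached 1 to 10 CPM. The other 32 stayed under 1 CPM. Together keratin genes took 2.26% ± 0.122 of all counts with EGF+OSM, 2.27% ± 0.0986 with EGF, 2.85% ± 0.227 in PBS, 3.11% ± 0.108 at T0 and 3.44% ± 0.118 with OSM+TGFB (SD, n = 3). These are shares of library totals, without the scaling used for CPM. OSM+TGFB had the highest group mean, and the groups with the lowest means, EGF+OSM and EGF, overlapped each other. By gene position on GRCh38 (GENCODE v44, whole gene spans, exons and introns included), the type II members lie together on chromosome 12 and the type I members on chromosome 17, except KRT18 (chr12:52948871-52952906), a type I gene at the end of the type II cluster next to its partner KRT8 (chr12:52897187-52949954).

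Per kb of transcript length, which allows levels of different genes to be set side by side, the summed keratin level in PBS was made up of KRT5 (21.6% ± 0.991), KRT17 (13.5% ± 1.05), KRT6A (13.4% ± 0.157), KRT10 (10.9% ± 1.46), KRT81 (10.5% ± 0.835) and KRT16 (9.67% ± 1.13, SD, n = 3), with smaller shares for the rest. With OSM+TGFB, KRT17 (30.6% ± 0.598) and KRT6A (30.5% ± 0.794) led, KRT5 held 16.9% ± 0.221 and KRT10 0.0682% ± 0.00362. With EGF the hair keratin KRT81 held the highest share (22.3% ± 0.563), and with OSM it held 1.08% ± 0.122. The summed type I level divided by the summed type II level, per kb, was 0.823 ± 0.00762 in PBS, 0.786 ± 0.0253 with OSM, 0.695 ± 0.0115 with OSM+TGFB, 0.658 ± 0.0135 with TGFB and 0.537 ± 0.0205 at T0 (SD, n = 3). It was lower in the 4 groups that received EGF, at 0.420 ± 0.0136 with EGF, 0.391 ± 0.0103 with EGF+OSM, 0.398 ± 0.0221 with EGF+TGFB and 0.416 ± 0.0113 with all 3 ligands. No EGF-treated library overlapped a library without EGF in this ratio.

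**Figure D1:**
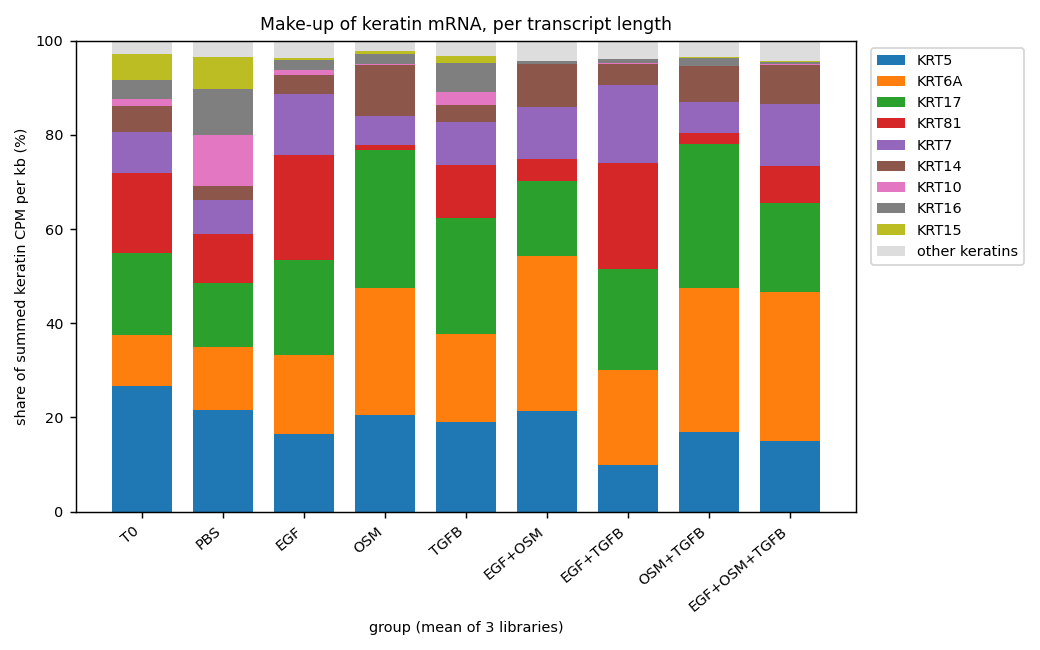
Stacked bars give the share of the summed keratin CPM per kb (vertical axis, %) held by 9 named keratins and by all others, as the mean of 3 libraries in each of the 9 groups (horizontal axis). KRT10 holds 10.9% in PBS and under 3% in every ligand group, and KRT81 falls to 1.08% with OSM.

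Sequences upstream of the start of 4 members are given because these genes include the basal KRT5, a suprabasal and a mucosal gene that fell with every ligand (KRT10 and KRT4) and KRT75, which rose furthest, so a reader can see what stands before them. Each is the 250 bases before the RefSeq start (GRCh38.p14, minus strand, read 5′ to 3′ along the gene), at chr12:52520395-52520644 for KRT5, chr17:40822615-40822864 for KRT10, chr12:52814117-52814366 for KRT4 and chr12:52434372-52434621 for KRT75. Capitals mark matches to the searched motifs.
KRT5: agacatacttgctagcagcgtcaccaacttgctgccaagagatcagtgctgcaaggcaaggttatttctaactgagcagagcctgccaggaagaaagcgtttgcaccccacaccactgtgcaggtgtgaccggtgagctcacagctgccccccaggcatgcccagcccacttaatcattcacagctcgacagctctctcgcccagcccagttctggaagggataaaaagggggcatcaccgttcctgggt
KRT10: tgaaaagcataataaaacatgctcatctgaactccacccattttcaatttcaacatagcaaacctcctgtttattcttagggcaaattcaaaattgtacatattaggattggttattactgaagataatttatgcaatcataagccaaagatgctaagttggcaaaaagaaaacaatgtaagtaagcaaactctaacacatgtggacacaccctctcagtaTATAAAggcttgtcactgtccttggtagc
KRT4: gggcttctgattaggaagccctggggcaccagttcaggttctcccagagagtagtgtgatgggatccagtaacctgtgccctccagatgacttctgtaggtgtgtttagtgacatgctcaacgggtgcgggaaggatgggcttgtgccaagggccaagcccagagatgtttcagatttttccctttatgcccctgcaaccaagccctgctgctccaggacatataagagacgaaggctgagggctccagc
KRT75: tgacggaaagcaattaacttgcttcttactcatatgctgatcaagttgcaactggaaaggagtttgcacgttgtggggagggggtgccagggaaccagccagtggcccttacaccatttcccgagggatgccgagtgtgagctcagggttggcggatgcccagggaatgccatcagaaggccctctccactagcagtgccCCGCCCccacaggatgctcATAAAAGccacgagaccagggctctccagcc
The motifs were the TATA motif TATAAA, the STAT motif TTCNNNGAA, the AP-1 motif TGANTCA, the SMAD motif CAGAC, the SP1 motif GGGCGG and, chosen after the sequences had been seen, ATAAAAG, each searched on both strands over 250 bases before to 50 after the start. KRT10 has TATAAA 29 bases before its start and KRT75 has ATAAAAG 31 bases and GGGCGG (as its reverse complement) 50 bases before it, while KRT5 and KRT4 hold none of these letters in the 250 bases. RefSeq windows were at hand for 34 of the 55 members, all on the minus strand, so KRT7, KRT18 and KRT86 are not among them. Many minus-strand members are missing too, with KRT1, KRT6A, KRT13, KRT14, KRT15, KRT16, KRT17 and KRT81 among those. The RefSeq starts of KRT8 and KRT40 lie 21393 and 2675 bases from the start of the canonical GENCODE v44 transcript, and both windows are counted. TATAAA was in 20 of the 34 keratin windows, against 11.5% of all 35116 windows, but in 2 of the 9 windows of keratin genes with enough counts for a test (KRT10 and KRT34). Of the other motifs, over the 34 windows, ATAAAAG was in 11 (4.66% of all), CAGAC in 15 (45.3%), GGGCGG in 6 (45% of all), TTCNNNGAA in 2 (7.66%) and TGANTCA in 0 (7.71%). A match is a string of letters, not a known site, and ATAAAAG overlaps TATAAA where a T stands before it.

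Differences were tested for the 27 keratin genes with enough counts, in a model over 15577 rows of all genes (edgeR's quasi-likelihood test, Benjamini-Hochberg adjustment over those rows, called at an adjusted p under 0.05). Against PBS, EGF changed 23 of the 27, 9 higher and 14 lower, against 73.5% of all rows tested (34.9% higher and 38.6% lower). OSM changed 22 of the 27, 7 higher and 15 lower, against 63.3% of all rows tested (33.5% higher and 29.8% lower). TGFB changed 16 of the 27, 8 higher and 8 lower, against 35.6% of all rows tested (19.9% higher and 15.8% lower). Among the pairs, EGF+OSM changed 23 of the 27, 7 higher and 16 lower, against 77.2% of all rows tested (37.6% higher and 39.6% lower). EGF+TGFB changed 24 of the 27, 12 higher and 12 lower, against 73.7% of all rows tested (36.1% higher and 37.5% lower), and OSM+TGFB 26 of the 27, 10 higher and 16 lower, against 66.0% of all rows tested (34.2% higher and 31.8% lower). All 3 ligands together changed 23 of the 27, 10 higher and 13 lower, against 74.4% of all rows tested (37.7% higher and 36.7% lower). Between T0 and PBS the count was 18 of the 27, 9 higher and 9 lower, against 35.1% of all rows tested (16.2% higher and 18.9% lower), higher meaning higher in PBS. For EGF, OSM and the combinations the shares of all rows are themselves large. The median log2 fold change of the 27 was -1.47 with OSM, beside 0.00 over all rows, and -1.72 with OSM+TGFB, also beside 0.00. All 7 ligand comparisons use the same PBS libraries.

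**Figure D2:**
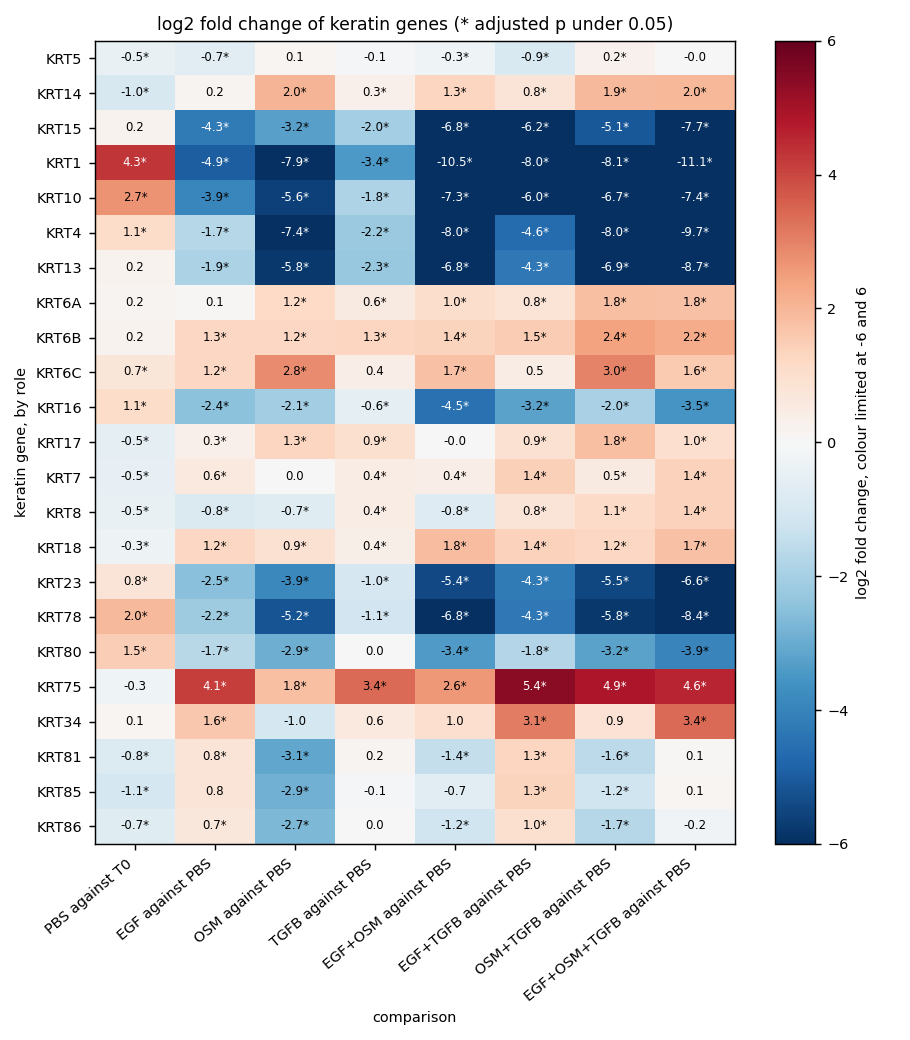
Colour and printed value give the log2 fold change of the 23 keratin genes that reached 1 CPM (rows, ordered by role) in 8 comparisons (columns), and an asterisk marks an adjusted p under 0.05. KRT15, KRT1, KRT10, KRT4 and KRT13 are blue in all 7 ligand columns, and KRT6B, KRT18 and KRT75 are red in all 7.

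Basal keratins split. KRT5 fell with EGF, KRT14 rose with OSM, and KRT15 fell in all 7 ligand groups. For KRT5 (chr12:52514575-52520530, 9 exons), the main type II keratin of basal cells, the level was 6127, 6314 and 7021 CPM in the 3 libraries of PBS, 3874, 4179 and 4121 under EGF, 6853, 7161 and 7160.4 under OSM and 5645, 5759.9 and 6542 under TGFB. The combinations gave 5449, 5293 and 5304 CPM with EGF+OSM, 3313, 3467 and 3462 with EGF+TGFB, 7261, 7701 and 8130.3 with OSM+TGFB and 6460.0, 6376 and 6351 with all 3 ligands, and T0 gave 9000.5, 8459.7 and 9188 CPM. The EGF and EGF+TGFB libraries lay below every PBS library, and the OSM libraries overlapped them. The log2 fold change was -0.68 ± 0.06 (SE) with EGF (edgeR adjusted p = 6.5e-11) and -0.93 ± 0.06 with EGF+TGFB (edgeR adjusted p = 1.2e-13). With OSM it was 0.12 ± 0.06 (edgeR adjusted p = 0.064) and with TGFB -0.12 ± 0.06 (edgeR adjusted p = 0.11), neither past the threshold. KRT5 passed it for OSM (0.18, edgeR adjusted p = 0.01) without PBS replicate 3 and for TGFB (-0.19, edgeR adjusted p = 0.014) without TGFB replicate 3. With upper-quartile scaling KRT5 also passed it for TGFB (-0.15, edgeR adjusted p = 0.033).

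KRT14 (chr17:41582279-41586895, 8 exons), the type I partner of KRT5, had 561, 670.4 and 751 CPM in the 3 libraries of PBS, 709, 752 and 746 under EGF, 2676, 2516 and 2958 under OSM and 752, 788 and 922 under TGFB. The combinations held 1672, 1608 and 1635 CPM with EGF+OSM, 1071, 1218 and 1142 with EGF+TGFB, 2366, 2440.0 and 2826 with OSM+TGFB and 2586, 2649 and 2649 with all 3 ligands, and T0 held 1192, 1217 and 1505 CPM. All 4 groups with OSM lay above all others without overlap. OSM raised KRT14 by 2.04 ± 0.10 on the log2 scale (edgeR adjusted p = 1.8e-14), a 4.11-fold rise, and EGF+OSM raised it by 1.31 ± 0.10 (edgeR adjusted p = 1.4e-11). With EGF the difference was 0.16 ± 0.10 (edgeR adjusted p = 0.15), which did not pass the threshold but did without PBS replicate 3 (0.26, edgeR adjusted p = 0.027). With TGFB it was 0.31 ± 0.10 (edgeR adjusted p = 0.014), a call lost without PBS replicate 1 (0.21, edgeR adjusted p = 0.11) or without TGFB replicate 3 (0.22, edgeR adjusted p = 0.1). This call was also lost with no filter on low counts and with the groups of the contrast alone (edgeR adjusted p = 0.06 and 0.1). Of the 31-base words of the KRT14 transcript, 42.7% also occur in other keratin genes or keratin pseudogenes, KRT16 and its pseudogenes first. Counts of KRT14, KRT16 and KRT17 could therefore be split between copies by the counting. Words shared with genes outside the keratin symbols were not searched, here or for the other members.

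KRT15 (chr17:41513745-41522529), a type I keratin of basal and progenitor cells, had 1669.7, 1667 and 1404 CPM in the 3 libraries of PBS, 100.0, 93.0 and 55.0 under EGF, 216, 206 and 76.5 under OSM and 388, 421 and 353 under TGFB. With combinations it had 17.1, 15.3 and 10.1 CPM with EGF+OSM, 21.3, 23.0 and 22.0 with EGF+TGFB, 60.7, 50.8 and 27.7 with OSM+TGFB and 7.73, 9.20 and 5.83 with all 3 ligands, and at T0 1682, 1534 and 941 CPM. Every ligand library lay below every PBS and T0 library. The fall was 19.1-fold with EGF (log2 -4.25 ± 0.37, edgeR adjusted p = 2.9e-09), 9.50-fold with OSM (log2 -3.25 ± 0.35, edgeR adjusted p = 1.2e-07) and 209-fold with all 3 ligands (log2 -7.71 ± 0.45, edgeR adjusted p = 5.5e-12). TGFB alone gave -2.03 ± 0.34 (edgeR adjusted p = 7.6e-05). The library numbered 3 was the lowest of its group in 8 of the 9 groups.

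The suprabasal KRT10 and KRT1 and the mucosal KRT4 and KRT13 had their highest group mean in PBS and fell with each ligand and each combination. KRT10 (chr17:40818117-40822614, 8 exons), the type I keratin of differentiating skin cells whose upstream sequence is printed with those of KRT5, KRT4 and KRT75, stood at 2453, 3220.2 and 3830.2 CPM in the 3 libraries of PBS, 161, 254 and 221 under EGF, 55.1, 80.5 and 62.4 under OSM and 608, 798 and 1236 under TGFB. It stood at 19.7, 21.0 and 20.8 CPM with EGF+OSM, 32.4, 45.9 and 68.7 with EGF+TGFB, 29.6, 28.3 and 31.4 with OSM+TGFB and 20.1, 17.8 and 19.2 with all 3 ligands, and at 402, 509.6 and 541 CPM in T0. PBS lay above all other groups, TGFB next with T0 below it, and every group with OSM lay at 80.5 CPM or less. The fall was 14.9-fold with EGF (log2 -3.90 ± 0.28, edgeR adjusted p = 1.3e-10), 47.9-fold with OSM (log2 -5.58 ± 0.30, edgeR adjusted p = 3.1e-12), 3.60-fold with TGFB (log2 -1.85 ± 0.26, edgeR adjusted p = 9.2e-06) and 166-fold with all 3 (log2 -7.37 ± 0.34, edgeR adjusted p = 6.6e-14). From T0 to PBS, KRT10 rose 6.54-fold (log2 2.71 ± 0.26, edgeR adjusted p = 1.6e-07). Almost none of its transcript (0.142% of 31-base words) is shared with another keratin gene or keratin pseudogene, the only genes searched.

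KRT1 (chr12:52674736-52680407, 9 exons), the type II partner of KRT10, had 81.0, 85.4 and 110.2 CPM in the 3 libraries of PBS, 1.74, 3.73 and 3.58 under EGF, 0.228, 0.444 and 0.486 under OSM and 4.65, 6.87 and 14.1 under TGFB. It had 0.0812, 0.0698 and 0.0253 CPM with EGF+OSM, 0.0550, 0.142 and 1.06 with EGF+TGFB, 0.365, 0.230 and 0.407 with OSM+TGFB and 0.0978, 0 and 0 with all 3 ligands, and 5.75, 4.57 and 4.03 CPM at T0. In EGF+TGFB replicate 3 stood apart. The log2 fold change was -4.93 ± 0.37 with EGF, -7.87 ± 0.49 with OSM and -3.44 ± 0.34 with TGFB (edgeR adjusted p = 2.1e-10, 1.5e-11 and 7.7e-08). With EGF+TGFB it was -8.01 ± 0.50 (edgeR adjusted p = 7.9e-12), and -9.73 without EGF+TGFB replicate 3. With all 3 ligands 4 counts were left over 3 libraries against 11706 in PBS, a level ratio of 2334 (95% exact interval 911 to 8569, counting error only). KRT1 rose from T0 to PBS by 4.27 ± 0.35 (edgeR adjusted p = 1.5e-08).

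KRT4 (chr12:52806549-52814116) and KRT13 (chr17:41500981-41505705), partners in mucosal epithelium, behaved alike in direction. KRT4 had 85.8, 121 and 129 CPM in the 3 libraries of PBS, 22.7, 36.5 and 45.0 under EGF, 0.655, 0.976 and 0.351 under OSM and 14.9, 21.9 and 36.1 under TGFB. Its combinations had 0.406, 0.652 and 0.253 CPM with EGF+OSM, 1.15, 3.14 and 10.4 with EGF+TGFB, 0.477, 0.259 and 0.552 with OSM+TGFB and 0.122, 0.174 and 0.0940 with all 3 ligands, and T0 had 49.0, 57.8 and 48.9 CPM. No ligand library of KRT4 reached a PBS library, and all 12 libraries with OSM lay under 1 CPM. The log2 fold change of KRT4 was -1.69 ± 0.37 with EGF, -7.36 ± 0.58 with OSM and -2.21 ± 0.38 with TGFB (edgeR adjusted p = 0.00042, 1e-09 and 0.00013). In EGF+TGFB, replicate 3 held 10.4 CPM, and KRT4 moved from -4.61 to -5.62 without it. KRT13 had 83.4, 108 and 110.1 CPM in the 3 libraries of PBS, 24.5, 27.6 and 29.0 under EGF, 1.71, 2.57 and 1.11 under OSM and 17.9, 20.5 and 23.9 under TGFB. Its combinations had 0.704, 0.768 and 1.19 CPM with EGF+OSM, 2.80, 4.01 and 9.18 with EGF+TGFB, 0.871, 0.804 and 0.842 with OSM+TGFB and 0.269, 0.314 and 0.157 with all 3 ligands, and T0 had 89.3, 97.2 and 72.4 CPM. EGF and TGFB left KRT13 at 17.9 to 29.0 CPM, and OSM at 2.57 CPM or less. The log2 fold change of KRT13 was -1.90 ± 0.22 with EGF, -5.77 ± 0.30 with OSM, -2.28 ± 0.23 with TGFB and -8.66 ± 0.41 with all 3 (edgeR adjusted p = 1.7e-07, 8.8e-13, 1e-07 and 6e-14). Between T0 and PBS it was 0.22 ± 0.21 (edgeR adjusted p = 0.46), not past the threshold, while KRT4 differed by 1.11 ± 0.36 (edgeR adjusted p = 0.023), a call lost without T0 replicate 1 or 3 or PBS replicate 2 or 3 (edgeR adjusted p = 0.064, 0.07, 0.066 and 0.077). With DESeq2 the KRT4 call was lost too (1.12, DESeq2 adjusted p = 0.1).

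**Figure D3:**
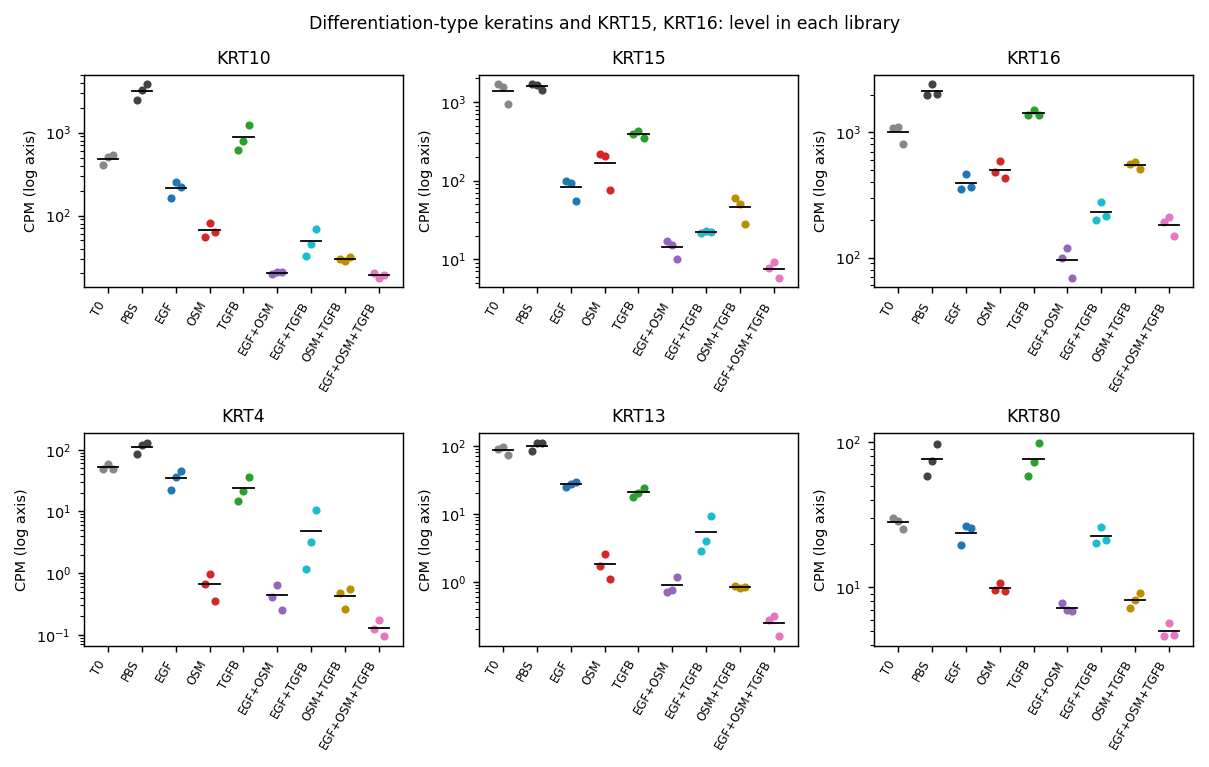
Each point is the CPM of KRT10, KRT15, KRT16, KRT4, KRT13 or KRT80 in 1 library (vertical axis, log scale) and the bar is the mean of the 3 libraries of the group (horizontal axis). For KRT10, PBS lies at 2453 to 3830.2 CPM and all 3 ligands at 17.8 to 20.1 CPM.

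KRT23 and KRT78 fell with each ligand too, and KRT80 fell with EGF and with OSM. KRT23 (chr17:40922700-40937646), a type I keratin, had 14.0, 15.2 and 15.8 CPM in the 3 libraries of PBS, 2.29, 2.99 and 2.51 under EGF, 1.02, 1.49 and 0.486 under OSM and 7.02, 7.11 and 8.41 under TGFB. It had 0.271, 0.512 and 0.253 CPM with EGF+OSM, 0.742, 0.628 and 1.03 with EGF+TGFB, 0.365, 0.402 and 0.232 with OSM+TGFB and 0.147, 0.174 and 0.125 with all 3 ligands, and 10.0, 8.55 and 7.63 CPM at T0. Every ligand library of KRT23 lay below the lowest PBS library, and the fold change with all 3 ligands was -6.63 on the log2 scale (edgeR adjusted p = 3.6e-16). KRT78 (chr12:52837804-52849092), a type II keratin, had 13.5, 19.0 and 20.0 CPM in the 3 libraries of PBS, 2.78, 4.47 and 4.56 under EGF, 0.370, 0.577 and 0.459 under OSM and 5.22, 7.44 and 11.4 under TGFB. It had 0.162, 0.210 and 0.101 CPM with EGF+OSM, 0.660, 0.709 and 1.44 with EGF+TGFB, 0.197, 0.287 and 0.465 with OSM+TGFB and 0.0489, 0.105 and 0 with all 3 ligands, and 4.32, 5.46 and 3.64 CPM at T0. It fell by 2.15 with EGF, 5.19 with OSM and 1.13 with TGFB on the log2 scale (edgeR adjusted p = 1.3e-07, 4.5e-12 and 0.0011). KRT80 (chr12:52168996-52192014), a type II keratin, had 58.7, 74.2 and 97.2 CPM in the 3 libraries of PBS, 19.6, 26.4 and 25.5 under EGF, 9.65, 10.7 and 9.45 under OSM and 58.5, 73.4 and 98.5 under TGFB. It had 7.83, 6.94 and 6.88 CPM with EGF+OSM, 20.3, 25.8 and 21.1 with EGF+TGFB, 7.22, 8.19 and 9.21 with OSM+TGFB and 4.60, 5.71 and 4.67 with all 3 ligands, and 30.1, 28.5 and 25.3 CPM at T0. For KRT80 the TGFB libraries covered nearly the range of the PBS libraries, and EGF and OSM lay below both. KRT80 fell by 1.69 with EGF and 2.94 with OSM on the log2 scale (edgeR adjusted p = 1.8e-08 and 1.3e-11). KRT78 and KRT80 had risen from T0 to PBS, by 1.96 and 1.45 on the log2 scale (edgeR adjusted p = 3.3e-06 and 1.1e-06).

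Wound keratins did not move as a block: KRT6A, KRT6B and KRT6C rose with OSM, KRT17 rose with OSM and TGFB, and KRT16 fell. KRT6A (chr12:52487176-52493257, 9 exons) had 3733, 4267 and 4399 CPM in the 3 libraries of PBS, 4097, 4533 and 4299 under EGF, 9299, 9547 and 9545 under OSM and 5731, 6114 and 6398 under TGFB. It had 8973, 8541 and 7932 CPM with EGF+OSM, 7214, 7753 and 6733 with EGF+TGFB, 14062, 14342 and 14672 with OSM+TGFB and 14502, 14053 and 13376 with all 3 ligands, and 3726, 3599 and 3827 CPM at T0. The OSM+TGFB and triple libraries, at 13376 to 14672 CPM, lay above all others, and the EGF libraries overlapped PBS. KRT6A rose 2.29-fold with OSM (log2 1.20 ± 0.06, edgeR adjusted p = 1.2e-14), 1.47-fold with TGFB (log2 0.56 ± 0.06, edgeR adjusted p = 6.7e-08) and 3.47-fold with both (log2 1.80 ± 0.06, edgeR adjusted p = 1.9e-18).

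KRT6B (chr12:52446651-52452146) had 67.9, 87.3 and 80.1 CPM in the 3 libraries of PBS, 174, 204 and 184 under EGF, 164, 188 and 196 under OSM and 179, 189.6 and 199.6 under TGFB. It had 209, 243 and 151 CPM with EGF+OSM, 218, 253 and 196 with EGF+TGFB, 378, 449.9 and 428 with OSM+TGFB and 376, 414 and 325 with all 3 ligands, and 70.8, 66.3 and 63.1 CPM at T0. Every ligand library lay above every PBS library, and OSM+TGFB with the triple group lay above all others. The rise was 1.26 ± 0.14 with EGF, 1.22 ± 0.14 with OSM and 1.27 ± 0.14 with TGFB on the log2 scale (edgeR adjusted p = 5e-08, 1.2e-07 and 2.5e-07). KRT6C (chr12:52468516-52473805) had 3.98, 5.22 and 5.84 CPM in the 3 libraries of PBS, 8.61, 10.1 and 16.5 under EGF, 29.1, 33.3 and 44.3 under OSM and 5.93, 6.92 and 7.23 under TGFB. It had 17.1, 17.6 and 15.5 CPM with EGF+OSM, 5.72, 7.01 and 8.09 with EGF+TGFB, 35.2, 38.2 and 46.9 with OSM+TGFB and 17.6, 14.0 and 13.4 with all 3 ligands, and 3.19, 2.93 and 2.89 CPM at T0. The OSM and OSM+TGFB libraries were the highest, without overlap with any other group. It rose by 2.82 ± 0.21 with OSM and 1.22 ± 0.21 with EGF (edgeR adjusted p = 9.8e-11 and 2.5e-05), and differed by 0.41 ± 0.22 with TGFB (edgeR adjusted p = 0.16), not past the threshold. KRT6C was called higher in PBS than at T0 (0.74, edgeR adjusted p = 0.019), a call lost without any of T0 replicates 2 and 3 and PBS replicates 2 and 3 (edgeR adjusted p = 0.055, 0.059, 0.056 and 0.085). The 3 KRT6 genes share 52.7%, 57.8% and 61.1% of their 31-base words (KRT6A, KRT6B, KRT6C) with other keratin genes or keratin pseudogenes, mostly each other. The split of counts between them is therefore uncertain.

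KRT16 (chr17:41609778-41615899), a type I keratin of wounded skin, had 1990.3, 2418 and 2022 CPM in the 3 libraries of PBS, 349.8, 466 and 365 under EGF, 484, 592 and 433 under OSM and 1372, 1512 and 1366 under TGFB. It had 99.2, 119 and 69.3 CPM with EGF+OSM, 199, 278 and 216 with EGF+TGFB, 556, 582 and 513 with OSM+TGFB and 192, 209 and 148 with all 3 ligands, and 1074, 1109.9 and 806 CPM at T0. Every ligand library lay below every PBS library. The fall was 5.45-fold with EGF (log2 -2.45 ± 0.19, edgeR adjusted p = 3.2e-10), 4.26-fold with OSM (log2 -2.09 ± 0.19, edgeR adjusted p = 4.7e-09) and 22.3-fold with both (log2 -4.48 ± 0.21, edgeR adjusted p = 5.1e-14). With TGFB it was -0.60 ± 0.18 (edgeR adjusted p = 0.014), a call lost without PBS replicate 2 (-0.50, edgeR adjusted p = 0.064). KRT17 (chr17:41619442-41624842), a type I keratin of basal and wound-edge cells, had 2566, 2542 and 3104 CPM in the 3 libraries of PBS, 3178, 3685 and 3259 under EGF, 6868, 7067 and 6455 under OSM and 4921, 5113 and 5825 under TGFB. It had 2823, 2932 and 2285 CPM with EGF+OSM, 4972, 5805 and 4454 with EGF+TGFB, 8888, 9766 and 9753 with OSM+TGFB and 5527, 5868 and 5002 with all 3 ligands, and 3754, 3614 and 4484 CPM at T0. OSM+TGFB lay above all other groups, and the EGF+OSM libraries overlapped PBS although OSM alone lay above both. KRT17 rose by 1.31 ± 0.11 with OSM and 0.95 ± 0.11 with TGFB (edgeR adjusted p = 3.2e-10 and 2.4e-07). With EGF it rose by 0.30 ± 0.11 (edgeR adjusted p = 0.015), a call lost without PBS replicate 1 or 2 or EGF replicate 2 (edgeR adjusted p = 0.065, 0.07 and 0.083). Upper-quartile scaling lost this call too (0.23, edgeR adjusted p = 0.058).

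**Figure D4:**
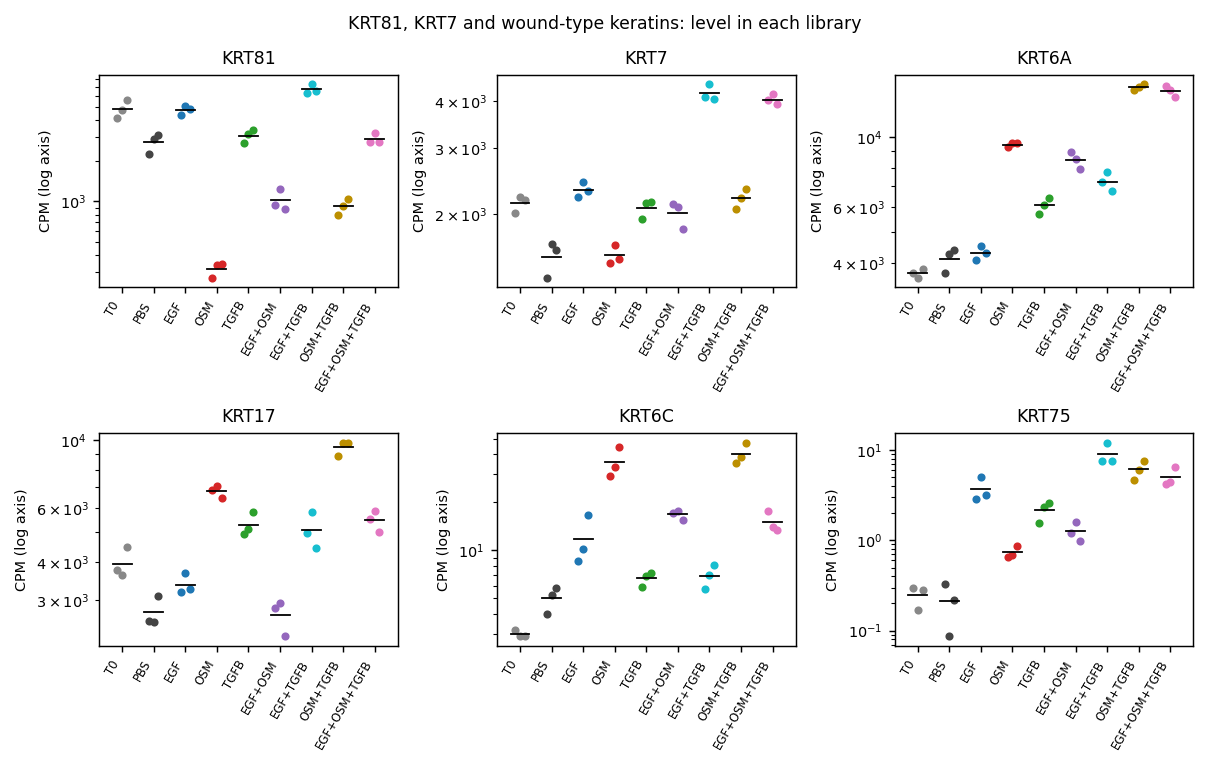
Points give the CPM of KRT81, KRT7, KRT6A, KRT17, KRT6C and KRT75 in each library (vertical axis, log scale) by group (horizontal axis), with a bar at the group mean. KRT81 with OSM lies at 273 to 343 CPM, below all other groups, while KRT6C is highest with OSM and with OSM+TGFB.

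Simple epithelial keratins went apart from each other: KRT18 rose with every ligand, KRT8 fell with EGF or OSM and rose with TGFB, and KRT7 rose with EGF and with TGFB. KRT8 (chr12:52897187-52949954), the type II keratin of simple epithelium, had 258, 268 and 261 CPM in the 3 libraries of PBS, 145, 164 and 128 under EGF, 163, 167 and 149 under OSM and 359, 366 and 337 under TGFB. It had 166, 166 and 136 CPM with EGF+OSM, 478, 521 and 364 with EGF+TGFB, 534, 589.5 and 596 with OSM+TGFB and 713, 714 and 657 with all 3 ligands, and 355, 372 and 355 CPM at T0. EGF, OSM and EGF+OSM libraries lay below PBS, every group with TGFB lay above it, and the triple group was the highest of all. The log2 fold change was -0.85 ± 0.10 with EGF, -0.72 ± 0.10 with OSM, 0.43 ± 0.10 with TGFB and 1.41 ± 0.10 with all 3 (edgeR adjusted p = 5.9e-08, 1.1e-06, 0.0013 and 7.9e-12). KRT18 (chr12:52948871-52952906), its type I partner, had 115, 124 and 109 CPM in the 3 libraries of PBS, 263, 274 and 282 under EGF, 201, 211 and 239 under OSM and 153, 156 and 139 under TGFB. It had 416, 402 and 430.2 CPM with EGF+OSM, 293, 316 and 287 with EGF+TGFB, 253, 274 and 292 with OSM+TGFB and 394, 385 and 388 with all 3 ligands, and 133, 158 and 143 CPM at T0. All 7 ligand groups lay above PBS, and EGF+OSM held the highest libraries. The rise was 1.23 ± 0.07 with EGF, 0.90 ± 0.07 with OSM, 0.36 ± 0.07 with TGFB and 1.84 ± 0.07 with EGF+OSM (edgeR adjusted p = 3.1e-14, 1.7e-11, 0.00015 and 1e-17). KRT8 and KRT18 share 58.6% and 66.9% of their 31-base words with other keratin genes or keratin pseudogenes, mostly the pseudogenes. The spans of both overlap on opposite strands, with the use of strand in counting not given in the sources used here. Rows named as KRT8 pseudogenes held 1.24% as many counts as KRT8, and those of KRT18 0.389% as many.

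KRT7 (chr12:52232520-52252186), a type II keratin of simple glandular epithelium, had 1358, 1667 and 1608 CPM in the 3 libraries of PBS, 2223, 2438 and 2311 under EGF, 1488, 1658 and 1520.5 under OSM and 1950.2, 2139.9 and 2161 under TGFB. It had 2133, 2092 and 1827 CPM with EGF+OSM, 4095, 4442 and 4061 with EGF+TGFB, 2067, 2218 and 2340.1 with OSM+TGFB and 4024, 4180.3 and 3926 with all 3 ligands, and 2023, 2227 and 2184 CPM at T0. The OSM libraries overlapped PBS, and EGF+TGFB and the triple group lay above every other group. The rise was 0.59 ± 0.07 with EGF, 0.43 ± 0.07 with TGFB and 1.44 ± 0.07 with EGF+TGFB (edgeR adjusted p = 5.1e-08, 2.8e-05 and 2.3e-15).

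**Figure D5:**
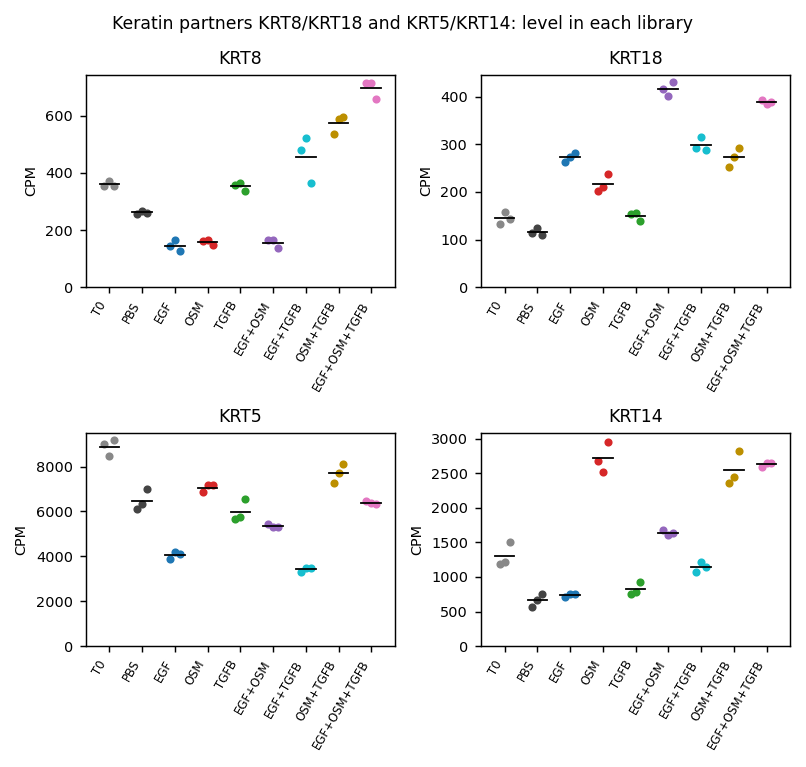
Points give the CPM of KRT8, KRT18, KRT5 and KRT14 in each library (vertical axis, linear, from 0) by group (horizontal axis), with a bar at the group mean. KRT18 is highest with EGF+OSM (402 to 430.2 CPM), where KRT8 (136 to 166 CPM) lies below its PBS libraries.

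Hair keratins had KRT81 far in front. KRT81 (chr12:52285913-52291534, 9 exons), a type II keratin of the hair shaft cortex, had 2238, 2885 and 3092 CPM in the 3 libraries of PBS, 4338, 5109 and 4819.9 under EGF, 273, 339 and 343 under OSM and 2705, 3136 and 3352 under TGFB. It had 943, 1235 and 874 CPM with EGF+OSM, 6374, 7361 and 6540.2 with EGF+TGFB, 799.8, 929 and 1039.6 with OSM+TGFB and 2764, 3198 and 2764 with all 3 ligands, and 4137, 4766 and 5646 CPM at T0. OSM lay below every other group, EGF and EGF+TGFB lay above PBS, and the triple group overlapped it. OSM lowered KRT81 8.60-fold (log2 -3.10 ± 0.16, edgeR adjusted p = 2.7e-13), EGF+OSM 2.69-fold (log2 -1.43 ± 0.15, edgeR adjusted p = 1.4e-08) and OSM+TGFB 2.97-fold (log2 -1.57 ± 0.15, edgeR adjusted p = 5.5e-09). EGF raised it by 0.80 ± 0.15 and EGF+TGFB by 1.30 ± 0.15 (edgeR adjusted p = 4.7e-05 and 6.3e-08), while TGFB alone gave 0.16 ± 0.14 (edgeR adjusted p = 0.42), not past the threshold. From T0 to PBS, KRT81 fell by 0.82 on the log2 scale (edgeR adjusted p = 0.00014).

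KRT86 and KRT85, also hair keratins of type II, were much lower and moved in the same directions as KRT81 where they were called. KRT86 averaged 4.42 ± 0.454 CPM for PBS, 7.10 ± 0.235 for EGF, 0.685 ± 0.122 for OSM and 8.62 ± 1.06 for EGF+TGFB (SD, n = 3), and fell by 2.70 with OSM on the log2 scale (edgeR adjusted p = 4.2e-11). KRT85 averaged 0.644 ± 0.132 CPM in PBS and 0.0818 ± 0.0531 with OSM, a fall of 2.88 (edgeR adjusted p = 0.00011). Its call between T0 and PBS (-1.05) was lost when any 1 T0 or PBS library was left out (edgeR adjusted p = 0.057 to 0.16). Upper-quartile scaling and unsummed rows lost it too. Its call with OSM+TGFB (-1.21) was lost without PBS replicate 1 or 3, without OSM+TGFB replicate 3 and with the groups of the contrast alone. Its call with EGF+TGFB (1.33) was lost without EGF+TGFB replicate 1 (edgeR adjusted p = 0.074). KRT81 shares 53.2% of its 31-base words with other keratin genes or keratin pseudogenes, KRT86 42.3% and KRT85 15.7%. The span of KRT86 (chr12:52249300-52309163, plus strand) contains that of KRT81 on the other strand. Per kb, KRT81 was 560.2 ± 157 times KRT86 with OSM and 921 ± 110.4 times with EGF+TGFB (SD, n = 3), the lowest and the highest of the 9 group means. The shares of KRT86 and KRT85 counts that came from KRT81 reads were not tested.

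KRT75 and KRT34 were low, and KRT75 rose in all 7 ligand groups but KRT34 only in some. KRT75 (chr12:52424070-52434371), a type II keratin of the hair follicle, averaged 0.210 ± 0.120 CPM for PBS, 3.68 ± 1.15 for EGF, 0.735 ± 0.112 for OSM, 2.17 ± 0.544 for TGFB and 8.99 ± 2.56 for EGF+TGFB (SD, n = 3). All 7 ligand groups lay above PBS without overlap, and the rise was 17.7-fold with EGF (log2 4.15 ± 0.37, edgeR adjusted p = 3e-10) and 10.4-fold with TGFB (log2 3.38 ± 0.39, edgeR adjusted p = 1.4e-07). These folds rest on 13, 4 and 9 counts of KRT75 in the PBS libraries. KRT34 (chr17:41377669-41382306), a type I hair keratin, averaged 0.197 ± 0.135 CPM in PBS, 0.604 ± 0.151 with EGF, 1.67 ± 0.632 with EGF+TGFB and 2.09 ± 0.569 with all 3 ligands. Its lowest group mean was 0.0939 CPM, with OSM. It was not called with OSM, TGFB, EGF+OSM or OSM+TGFB. With EGF it rose by 1.61 on the log2 scale, a call lost with unsummed rows (1.65, edgeR adjusted p = 0.11). It rose by 3.08 with EGF+TGFB and 3.39 with all 3 ligands on the log2 scale (edgeR adjusted p = 4.3e-06 and 9.6e-07). PBS held 3, 8 and 14 counts of KRT34, and without PBS replicate 3 these values were 3.71 and 4.02, and 3.98 and 4.21 without replicate 3 of every group.

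The other members stayed under 1 CPM in every group mean. KRT9, KRT12, KRT19 and KRT222 had enough counts for a test, and their calls against PBS were all in the lower direction: KRT12, a corneal keratin, in 6 of the 7 ligand comparisons, KRT9 (palm and sole skin) and KRT19 (simple epithelium) in 5 each and KRT222 in 2. A further 28 were not tested, of which 7 had 0 counts in all 27 libraries and 21 had between 1 and 72 counts in all, with at most 0.410 CPM in any library. They are KRT2, KRT3, KRT20, KRT24, KRT25, KRT26, KRT27, KRT28, KRT31, KRT32, KRT33A, KRT33B, KRT35, KRT36, KRT37, KRT38, KRT39, KRT40, KRT71, KRT72, KRT73, KRT74, KRT76, KRT77, KRT79, KRT82, KRT83 and KRT84.

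Partner genes changed their balance with some ligands and not with others, which the ratio of both levels per kb shows. KRT8 over KRT18 was 1.79 ± 0.0936 in PBS and 1.88 ± 0.0402 with TGFB, and 0.424 ± 0.0579 under EGF, 0.587 ± 0.0801 under OSM and 0.298 ± 0.0418 under EGF+OSM (SD, n = 3). With all 3 ligands it was 1.41 ± 0.0661. So the 3 groups with EGF or OSM and no TGFB lay under 1, and all others above 1. KRT5 over KRT14 was 7.23 ± 0.645 in PBS, 4.03 ± 0.0347 with EGF and 1.91 ± 0.158 with OSM. KRT6A over KRT16 was 1.39 ± 0.153 in PBS and 66.2 ± 15.5 with EGF+OSM, where KRT16 had fallen and KRT6A had risen. KRT6A over KRT17 was 0.997 ± 0.0928 in PBS, 0.917 ± 0.0479 with OSM and 2.10 ± 0.184 with EGF+OSM.

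Departures from additivity were then tested for the 3 pairs. A departure was obtained by subtracting both single-ligand log2 fold changes from that of the pair, each taken against PBS, and is 0 where they add up. EGF+OSM departed for 14 of the 27, 7 higher and 7 lower, against 38.7% of all rows tested (15.7% higher and 23.0% lower). KRT17 gave -1.64 ± 0.15 (edgeR adjusted p = 1e-08): with EGF on top of OSM it fell, from 6455 to 7067 CPM down to 2285 to 2932 CPM. KRT6C gave -2.31 ± 0.29, KRT6B -1.12 ± 0.19, KRT14 -0.88 ± 0.14 and KRT75 -3.36 ± 0.52 (edgeR adjusted p = 1.1e-06, 8.8e-05, 1.5e-05 and 1.2e-05). In the other direction KRT10 gave 2.21 ± 0.37, KRT80 1.22 ± 0.27, KRT81 0.88 ± 0.21 and KRT8 0.81 ± 0.14 (edgeR adjusted p = 8.4e-05, 0.0011, 0.0018 and 6.2e-05), that is, these fell less than the single falls summed, and for KRT81 the rise with EGF and the fall with OSM did not add.

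EGF+TGFB departed for 5 of the 27, 2 higher and 3 lower, against 29.8% of all rows tested (13.3% higher and 16.5% lower), and for 9 without EGF+TGFB replicate 3. KRT8 gave 1.21 ± 0.14 and KRT7 0.42 ± 0.10, both higher than the sum (edgeR adjusted p = 1.3e-06 and 0.0025), and KRT6B -1.02 ± 0.19, KRT6C -1.18 ± 0.31 and KRT75 -2.09 ± 0.48 were lower (edgeR adjusted p = 0.00043, 0.0059 and 0.0017). OSM+TGFB departed for 8 of the 27, 6 higher and 2 lower, against 23.3% of all rows tested (9.60% higher and 13.7% lower). Without a single library that count went down to 3 to 6: it was 5 without PBS replicate 1 or 2, OSM replicate 1 or 2, or TGFB replicate 1 or 2, 3 without OSM+TGFB replicate 1 and 4 without OSM+TGFB replicate 2. KRT8 gave 1.41 ± 0.14 and KRT81 1.37 ± 0.21 (edgeR adjusted p = 2.5e-07 and 6.3e-05), and both kept the call in every fit that left out a library. KRT8 was the 1 keratin gene that departed in all 3 pairs, each time upward.

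A second ligand was also tested on top of a first. EGF added to OSM changed 17 of the 27, 7 higher and 10 lower, against 61.7% of all rows tested (29.9% higher and 31.8% lower). KRT17 fell there by 1.34 and KRT81 rose by 1.68 on the log2 scale (edgeR adjusted p = 5.3e-10 and 4.9e-09). OSM added to EGF changed 21 of the 27, 5 higher and 16 lower, against 34.9% of all rows tested (17.8% higher and 17.1% lower). KRT81 fell there by 2.23 and KRT14 rose by 1.15 (edgeR adjusted p = 1.8e-10 and 1.6e-09). EGF added to TGFB changed 22 of the 27, 10 higher and 12 lower, against 69.4% of all rows tested (33.9% higher and 35.5% lower), and TGFB added to EGF 19 of the 27, 8 higher and 11 lower, against 54.6% of all rows tested (27% higher and 27.7% lower). TGFB raised KRT8 by 1.64 ± 0.10 on top of EGF and by 1.84 ± 0.10 on top of OSM (edgeR adjusted p = 4.8e-12 and 1.1e-12), and by 0.43 alone. OSM added to TGFB changed 23 of the 27, 9 higher and 14 lower, against 56.6% of all rows tested (30.1% higher and 26.5% lower), and TGFB added to OSM 14 of the 27, 11 higher and 3 lower, against 51.6% of all rows tested (26.1% higher and 25.6% lower).

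The third ligand was tested on top of each pair. TGFB on top of EGF+OSM changed 15 of the 27, 12 higher and 3 lower, against 61.1% of all rows tested (31.6% higher and 29.5% lower), with KRT8 at 2.16 ± 0.10, KRT75 at 1.98 ± 0.29, KRT81 at 1.52 ± 0.15 and KRT17 at 1.03 ± 0.11 (edgeR adjusted p = 3.1e-14, 1.5e-06, 1.3e-08 and 2.1e-08). OSM on top of EGF+TGFB changed 18 of the 27, 7 higher and 11 lower, against 26.4% of all rows tested (13.6% higher and 12.8% lower), with KRT14 at 1.20 ± 0.10, KRT5 at 0.91 ± 0.06 and KRT6A at 0.95 ± 0.06 upward and KRT13 at -4.36 ± 0.54 downward (edgeR adjusted p = 1.1e-09, 3.3e-12, 6.3e-12 and 3e-06). The KRT13 value was -3.83 without EGF+TGFB replicate 3, the highest library of its group, and -3.60 without replicate 3 of every group. EGF on top of OSM+TGFB changed 15 of the 27, 8 higher and 7 lower, against 52.2% of all rows tested (26.3% higher and 25.9% lower), with KRT81 at 1.66 ± 0.15 and KRT7 at 0.87 ± 0.07 upward and KRT15 at -2.62 ± 0.40, KRT16 at -1.59 ± 0.19 and KRT6C at -1.42 ± 0.19 downward (edgeR adjusted p = 1e-08, 3.9e-10, 2e-05, 5.8e-07 and 2.6e-06).

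Other genes of the filament system were read from lists. Of 12 genes that link or bind keratin filaments, all tested, EGF+OSM changed 6 upward and 6 downward (against 77.2% of all rows called), EGF 6 and 6 (73.5%), OSM 5 and 5 (63.3%), and TGFB 1 and 1 (35.6%). DSP (desmoplakin, which ties keratin to desmosomes) averaged 4336 ± 293 CPM in PBS and 987 ± 94.5 with EGF+OSM, a fall of 2.14 on the log2 scale (edgeR adjusted p = 5.7e-17). PPL (periplakin) averaged 804 ± 56.6 CPM and 38.3 ± 10.8 in these groups (log2 -4.39, edgeR adjusted p = 3.4e-13), and PKP1, a plakophilin of desmosomes, fell by 4.13 (edgeR adjusted p = 3.5e-15). PLEC (plectin, a linker at hemidesmosomes) averaged 1235 ± 102 CPM in PBS and 3195 ± 389 with all 3 ligands (log2 1.37, edgeR adjusted p = 3.1e-12). With EGF+OSM, PLEC rose by 0.71 and EPPK1, another gene of the list, by 1.17 on the log2 scale. Of 15 other intermediate filament genes, 9 were tested, and EGF changed 4 upward and 1 downward, OSM 5 and 2, TGFB 2 and 0 and all 3 ligands 5 and 1, where 73.5%, 63.3%, 35.6% and 74.4% of all rows were called. VIM (vimentin, the filament protein of mesenchymal cells) rose in all 7 ligand groups, from 418 ± 24.6 CPM in PBS to 803 ± 64.7 with TGFB, 1011 ± 23.4 with EGF and 1948 ± 76.5 with all 3 (log2 2.22, edgeR adjusted p = 3.6e-19). The lamin gene LMNB1 rose by 4.42 with EGF and 3.84 with OSM (edgeR adjusted p = 4.2e-14 and 5.3e-13).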

How the data were processed

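RNA-seq of 27 MCF10A libraries was used as deposited: the authors made estimated counts per gene from their reads and deposited them as whole numbers, without normalization. The submitters' processing notes name Trim Galore 0.4.3, cutadapt 1.10, FastQC 0.11.5, kallisto 0.46.2, R 3.5.0 and the build GRCh38.p5 (hg38), without role or order. The annotation release and the use of strand in counting are not given in the sources used here. Rows of the same symbol and gene type were summed (40487 to 36585 rows). Levels are CPM over library totals scaled by TMM. Tests used edgeR 4.0.16 (R 4.3.3) with quasi-likelihood fits over all 27 libraries, on 15577 rows left by its count filter, and standard errors are the absolute log2 fold change over the square root of F. The test was run on simulated counts in which 200 of 15577 rows were raised, in EGF alone. It called 71 of 100 rows raised 2-fold and 91 of 100 raised 4-fold, and 10 unchanged rows. In the data 73.5% of rows were called for EGF, so this run does not check the scaling under so broad a change. Members reaching 10 CPM were given by library, those from 1 to 10 CPM by group mean and the rest by counts. Members and lists were chosen with earlier results of these data known. Alternatives were DESeq2 1.42.0, upper-quartile scaling, no count filter, unsummed rows, the contrast's groups alone, a replicate block and leaving out libraries.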

Additional observations from a re-analysis of the deposited data

Results flagged for a closer look

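For 4 keratin genes a ligand moved the level one way alone and the other way on top of a second ligand, with a tested difference (edgeR's quasi-likelihood test of the departure, adjusted over all rows). KRT17 rose by 0.30 on the log2 scale with EGF alone (edgeR adjusted p = 0.015) and changed by -1.34 with EGF on top of OSM (edgeR adjusted p = 5.3e-10), a difference of -1.64 (edgeR adjusted p = 1e-08). The EGF call alone is lost without PBS replicate 1 or 2 or EGF replicate 2, and with upper-quartile scaling. The same difference of -1.64 seen from OSM is 1.31 alone (edgeR adjusted p = 3.2e-10) and -0.33 on top of EGF (edgeR adjusted p = 0.02). The -0.33 was not run without single libraries, and EGF+OSM replicate 3 was the lowest of its group (2285 CPM, beside 2823 and 2932). KRT6C changed by 1.22 with EGF alone (edgeR adjusted p = 2.5e-05) and by -1.09 on top of OSM (edgeR adjusted p = 3.8e-05), a difference of -2.31 (edgeR adjusted p = 1.1e-06). KRT8 changed by -0.85 with EGF alone (edgeR adjusted p = 5.9e-08) and by 0.36 on top of TGFB (edgeR adjusted p = 0.0024), a difference of 1.21 (edgeR adjusted p = 1.3e-06). With OSM, KRT8 changed by -0.72 alone (edgeR adjusted p = 1.1e-06) and by 0.70 on top of TGFB (edgeR adjusted p = 2.1e-06), a difference of 1.41 (edgeR adjusted p = 2.5e-07).

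The low gene KRT75 did the same with OSM, at 1.82 alone (edgeR adjusted p = 0.00084) and -1.54 on top of EGF (edgeR adjusted p = 0.00014), a difference of -3.36 (edgeR adjusted p = 1.2e-05). The cause of these reversals was not tested.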

How the results depend on the processing

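No value reversed under any alternative run. The number of keratin genes departing from additivity with EGF+TGFB was 5, and 8 with a replicate block, 8 without replicate 3 of every group and 5 to 9 when 1 library was left out. With OSM+TGFB it was 8, and 4 with no filter on low counts, 5 with the groups of the contrast alone, 3 to 6 when 1 library was left out and 7 without replicate 3 of every group, a setting chosen after seeing the data. The cause of these shifts was not tested. The counts of the other 12 comparisons run under alternatives stayed within 1.5 times the reported one. The counts and single-gene values for a second ligand on top of a first were not run under any alternative. Of 277 single-gene values, 275 kept direction and call with DESeq2, 273 with upper-quartile scaling, 269 with no filter, 274 with rows as deposited and 265 with the groups of the contrast alone. Leaving out libraries gave 2101 values, of which 1976 kept their call, 119 lost it and 6 gained it. Over all rows tested, replicate numbers tracked the libraries only weakly. Same-numbered libraries of different groups deviated from their group means with a mean correlation of 0.062 (-0.026 to 0.178), beside -0.031 (-0.162 to 0.124) for other numbers. Deviations sum to 0 within a group, so the second mean follows from the first and is no separate baseline. In 2 of 36 group pairs every same-number value was above 0.1. Single keratins did follow the number: replicate 3 was never the highest of its group for KRT15 and KRT16, and never the lowest for KRT14 and KRT10. KRT34 came near this, with replicate 3 the lowest in 8 of the 9 groups and the highest in 1, PBS. For every other gene that reached 1 CPM replicate 3 was lowest in some groups and highest in others. The replicate block kept 274 of the 277 calls, gained KRT5 with OSM (0.12, edgeR adjusted p = 0.025) and KRT14 with EGF (0.16, edgeR adjusted p = 0.04), and lost KRT13 for TGFB added to EGF+OSM (-1.81, edgeR adjusted p = 0.058). Genes near 0 counts after treatment (KRT1, KRT4, KRT78) have folds limited by depth.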
